A study of Mus musculus with 15 samples.

Results

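The Rab GTPases, the proteins that bind them and the TBC-domain proteins that switch them off were examined in mouse cortex 1 month after repeated head impact. Members were protein-coding transcripts chosen by GENCODE gene name alone: Rab followed by a digit, the Rab family interacting proteins (fip), and names that begin with Rabgap, Rabep or Tbc1d. The rule found 84 transcripts of 70 genes among 10370 transcripts of 7740 genes, of which 9435 transcripts were protein-coding. The rule itself read no measured value, though the members were chosen with earlier results of these data known. Of the 70 genes, 58 had 1 coding transcript in the data and 12 had several. A retained-intron transcript of Rab14 and the antisense transcript Rab10os belong to matching names but are not coding, and neither differed between groups at an unadjusted p under 0.05. Rab5if, a Rab5-interacting factor, is a member by its name and is no Rab.

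The libraries were made from total RNA of the dissected cortex. All mice were male C57BL/6, 12 weeks old per the labels. The 7 Sham libraries came from mice handled and anesthetized with isoflurane without impact, and the 8 high-frequency head impact (HF-HI) libraries from mice given repeated head impacts on consecutive days under the same anesthetic. The labels give no transgene or drug for either group. The labels do not say that each library is a separate animal, so p-values measure the spread between these libraries, which may be partly technical.

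Rab proteins are small GTPases that label the membranes of the cell, each on its own compartment, and cycle between a GTP-bound active and a GDP-bound inactive form. Exchange factors load GTP, most GTPase-activating proteins share the TBC domain, and effectors bind the active form to tether, move or fuse vesicles. In neurons Rab3 proteins sit on synaptic vesicles, Rab5 on early endosomes, and Rab4 and Rab11 on the recycling endosomes through which receptors return to the synapse.

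Values are normalized counts, which are the recovered reads of a transcript divided by the size factor of its library. Between 3496103 (HF-HI replicate 4) and 10582858 (Sham replicate 4) reads were recovered in the listed transcripts. Size factors were 0.818 to 1.47 in Sham and 0.501 to 1.22 in HF-HI, and their mean log2 was lower in HF-HI (0.30 in Sham, −0.25 in HF-HI, exact two-sided permutation p = 0.0280). HF-HI replicate 2 stood apart on the first principal component of all transcripts, with a score of 12.6 where the other 14 libraries lay between −3.35 and 0.72. All 9 markers of cortical excitatory neurons were listed, with summed counts of 9516 to 10535 in Sham and 9477 to 11021 in HF-HI, and 2 of their 11 transcripts (Neurod2 and Rorb) passed an unadjusted p of 0.05, both higher in HF-HI. Of 10 striatal projection neuron markers 9 were listed (Drd2 was not), with sums of 7860 to 11779 in Sham and 5618 to 11297 in HF-HI (exact permutation p = 0.0842), and 3 of their 13 transcripts passed an unadjusted p of 0.05, all lower in HF-HI. The choroid plexus marker Ttr was 35.0 to 6685 in Sham libraries and 21.04 to 8663 in HF-HI libraries, and the other 5 markers of that tissue were not listed. Summed astrocyte, oligodendrocyte, microglia and endothelium markers had exact permutation p-values from 0.160 to 0.964, and of their transcripts 1, of microglial P2ry12, was called (lower in HF-HI). The part of depth, of HF-HI replicate 2 and of tissue makeup in the results below was not tested beyond the values given beside them. In bulk tissue, fewer cells of a type and less RNA per cell cannot be told apart.

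The share of members called between Sham and HF-HI was near that of all transcripts, and the differences of those called were small. With limma on the deposited values, 8 of 84 member transcripts (9.52%) had an unadjusted p under 0.05, beside 8.83% of all transcripts. Of these, 5 (5.95%) were higher in HF-HI, beside 4.94% of all transcripts, and 3 (3.57%) were lower, beside 3.90%. At a Benjamini-Hochberg adjusted p under 0.1 no member and no transcript of any gene passed in limma (0.00%), and the smallest adjusted p among members was 0.356. No member had groups whose ranges did not overlap, beside 0.154% of all transcripts. The members called were 2 transcripts of Rabep1 and 1 each of Rab11fip3, Rab11fip4, Tbc1d30, Rab6b, Rab4b and Rab39b. The exact permutation test on the same values also put all 8 under 0.05, with 2 others, out of 6435 arrangements that allow a smallest p of 0.0001554. That test was not run over all transcripts, so its count has no background share beside it.

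**Figure D1:**
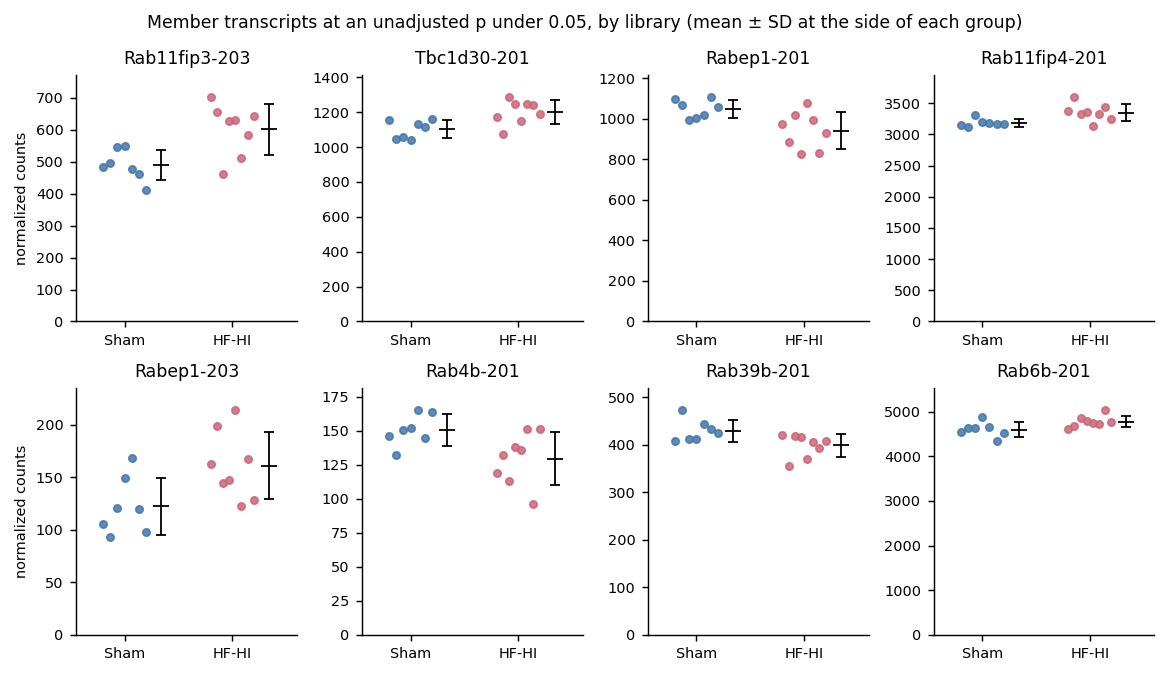
Normalized counts (vertical axis, from 0) of the 8 member transcripts at an unadjusted p under 0.05, 1 point a library, with the mean and SD of the 7 Sham (blue) and 8 HF-HI (red) libraries at the side. In every panel the ranges of the groups overlap, and the largest ratio of means is that of Rabep1-203, 122 in Sham and 161 in HF-HI.

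The sizes were small across the family. The absolute log2 ratio of group means was under 0.1 for 66 of 84 members, and among those called it ran from 0.06 for Rab6b to 0.40 for the shorter Rabep1 transcript. The median size of the difference on the deposited log2 scale, which compresses low counts, was 0.015 for members and 0.023 for all transcripts. The median log2 ratio was −0.011 for members and −0.0019 for all transcripts. On the deposited scale 32 of 84 members had a higher mean in HF-HI, beside 5028 of 10370 transcripts. With each library centered on its median, or with quantile normalization, 8 members were again called, 4 higher and 4 lower, and 7 of them were shared with the 8 above. Rab6b was lost and Rabgap1l-201, lower in HF-HI, was gained.

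When reads were summed over the transcripts of each gene, 6 of 70 member genes (8.57%) had an unadjusted p under 0.05 in limma-voom, beside 9.43% of all genes. Higher in HF-HI were 4 (Rab11fip3, Tbc1d30, Rab11fip4 and Rab6b), beside 5.19% of all genes, and lower were 2 (Rab4b and Rab39b), beside 4.24%. With the Benjamini-Hochberg adjustment over all genes 0.0129% of genes were under 0.1 in limma-voom, none of them a member, and the smallest adjusted p of a member was 0.276. The 95% intervals bound what these libraries could miss. For 65 of 70 genes the whole interval of the fold change lay between 0.8 and 1.25, and over all 70 genes the bounds reached from 0.729 (Tbc1d17) to 1.41 (Rab2b).

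**Figure D2:**
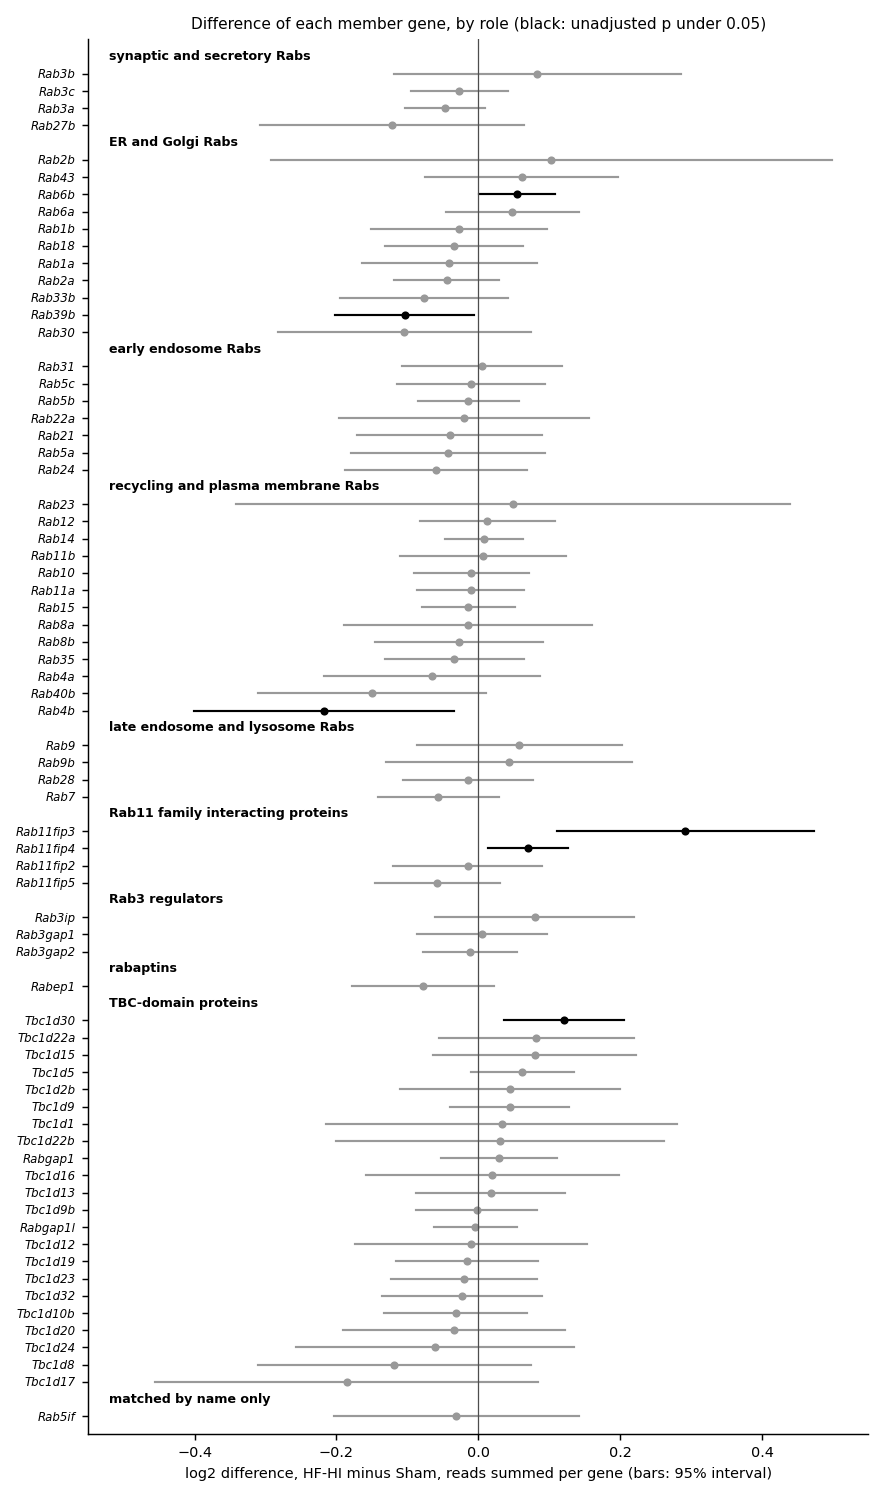
Log2 difference of each of the 70 member genes, HF-HI minus Sham (horizontal axis), with reads summed over its transcripts. Points are limma-voom estimates, bars are 95% intervals, and the 6 genes in black have an unadjusted p under 0.05. Most points lie within 0.1 of 0, and Rab11fip3 lies farthest to the right at 0.29 and Rab4b farthest to the left at −0.22.

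Levels of different genes were compared per kilobase of transcript. Rab3a, the synaptic vesicle Rab, was the most abundant member, at 1844 ± 44.2 normalized counts per kb in Sham and 1787 ± 68.6 in HF-HI (mean ± SD over the 7 or 8 libraries). The Golgi Rabs Rab6a (1533 ± 92.8 in Sham, 1602 ± 91.5 in HF-HI) and Rab6b (919 ± 31.8 in Sham, 955 ± 25.0 in HF-HI) came next. Rab2a, which acts between the ER and the Golgi, followed at 857 ± 47.8 and 829 ± 25.9, and Rab18, found on the ER and on lipid droplets, at 624 ± 36.8 and 607 ± 36.9. The lowest were Tbc1d17 at 18.4 ± 2.85 and 16.3 ± 3.78 and Rab30 at 18.3 ± 1.97 and 17.5 ± 2.28, so that the highest member exceeded the lowest by 105-fold. Members ranked near the middle of the listed genes, with a median of 145 counts per kb beside 123 for all listed genes. Of the 70 members, 39 lay above the median listed gene. No listed transcript had a mean under 107.9 normalized counts, so any rarer Rab or TBC gene is absent from this order.

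Few neighbours in the order were separated. Rab3a was above Rab6a in all 15 libraries and Rab6a above Rab6b with no overlap of their ranges. Ranges also separated Rab2a from Rab18, and Tbc1d2b from Rab30 near the bottom. For the other pairs of neighbours in the order the ranges overlapped: 3 of 69 pairs had separate ranges and 6 of 69 kept their order in every library. Rab5c, Rab3c, Rabgap1l and Rab10 could not be ordered, since each was above the next in 6 to 8 of 15 libraries.

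**Figure D3:**
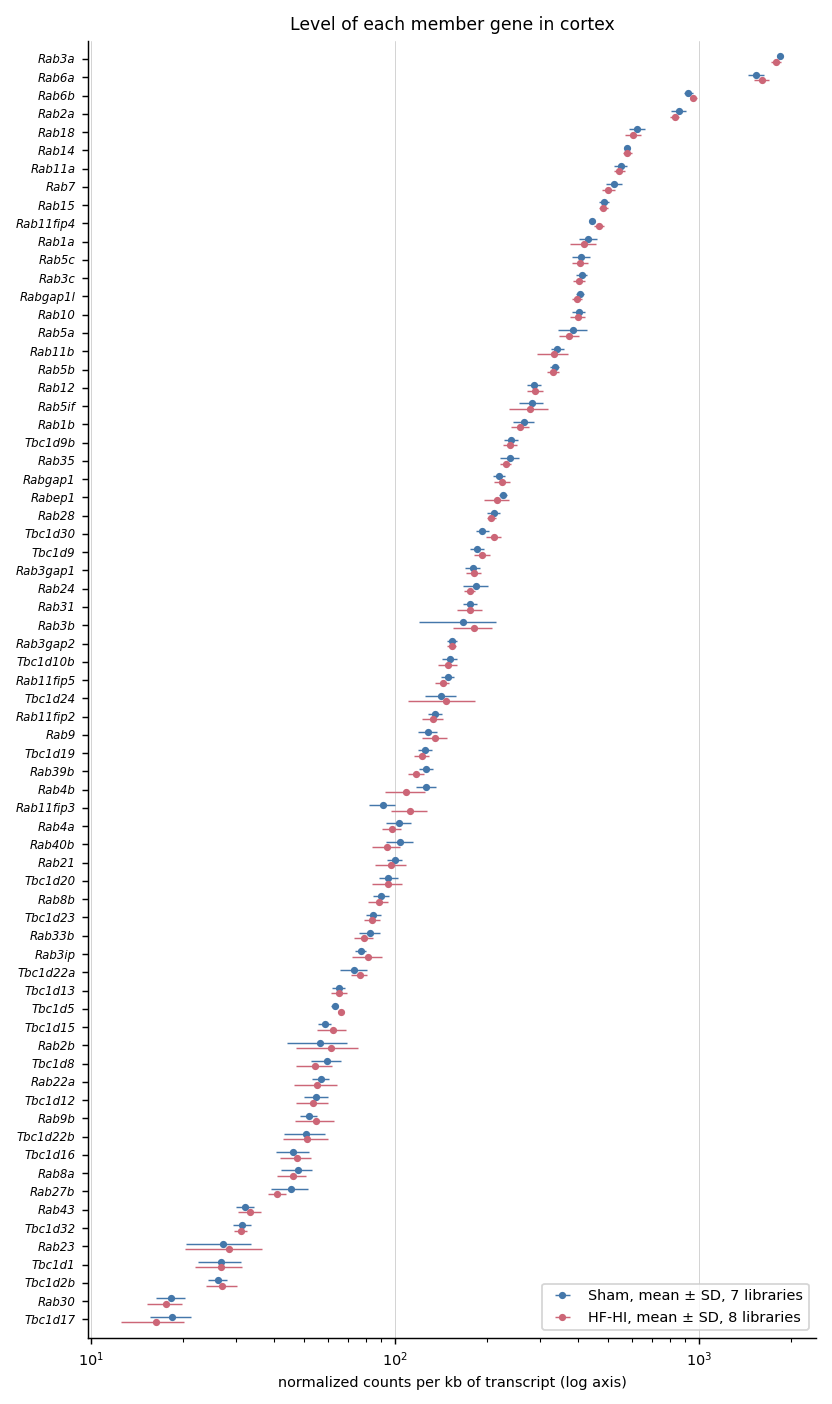
Normalized counts per kilobase of transcript (horizontal log axis) for the 70 member genes, ordered by their mean over all libraries. Points and bars are the mean and SD of the 7 Sham (blue) and 8 HF-HI (red) libraries. Levels run from 1844 for Rab3a in Sham down to 16.3 for Tbc1d17 in HF-HI, and the bars of the groups overlap for most genes.

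Within families of close relatives the mean division of counts was similar in Sham and HF-HI, while single libraries varied more. Rab3a held 76.2% ± 1.47 of the summed Rab3 counts per kb in Sham and 75.4% ± 1.28 in HF-HI, Rab3c held 17.0% ± 0.902 and 17.0% ± 1.07, and Rab3b the rest. Rab6a held 62.5% ± 2.01 of the Rab6 pair in Sham and 62.6% ± 1.24 in HF-HI. The Rab5 counts were spread more evenly, with Rab5c at 36.3% ± 1.74, Rab5a at 34.1% ± 2.84 and Rab5b at 29.7% ± 2.01 in Sham. Rab2 was the most uneven pair, with Rab2a at 93.8% ± 1.36 in Sham and 93.1% ± 1.499 in HF-HI. In HF-HI the largest SD of such a share was that of the Rab4 pair, where Rab4b held 55.1% ± 2.22 in Sham and 52.5% ± 4.55 in HF-HI, with a range of 46.0% to 58.9% in HF-HI. In Sham the largest SD was that of Tbc1d22a, 3.84 points.

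The Rab11 family interacting proteins link Rab11 on recycling endosomes to motors and tethers, and 2 of their 5 transcripts had a p under 0.05, both higher in HF-HI, beside 4.94% of all transcripts. Rab11fip3 (ENSMUST00000122103, chr17:25989036-26069545 on GRCm38, minus strand), an effector that binds dynein and also Arf6, had a lowest, median and highest count of 413, 483 and 551 in Sham. In HF-HI they were 461, 630 and 703. In all, 6 HF-HI libraries exceeded every Sham library and 1 lay below the Sham median. The means were 490 ± 47.8 and 602 ± 79.8, a log2 ratio of 0.30, with a difference of 0.11 on the deposited scale (SE 0.03, unadjusted p = 0.00416 and Benjamini-Hochberg adjusted p = 0.356 in limma). Without HF-HI replicate 2 its log2 ratio was 0.28.

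Rab11fip4 (ENSMUST00000017783, chr11:79591212-79698023, plus strand), the closest relative of Rab11fip3 and the more abundant of the pair, was 3117, 3166 and 3304 in Sham (lowest, median and highest) and 3126, 3344 and 3599 in HF-HI. Its Sham libraries lay close together, with a coefficient of variation (SD over mean) of 1.87%, and 6 HF-HI libraries were above all of them. This is a log2 ratio of 0.07 (unadjusted p = 0.0166 and adjusted p = 0.464 with Benjamini-Hochberg in limma). HF-HI replicate 2 held the highest count, and without that library the ratio was 0.06 with an unadjusted p of 0.0270. With depth as a covariate the difference on the deposited scale was 0.02 (unadjusted p = 0.259), and among libraries with a size factor above 1 it was 0.02 (0.286), beside 0.05 over all libraries. Rab11fip3 made up 17.0% ± 1.254 of the counts per kb of the pair in Sham and 19.3% ± 2.13 in HF-HI.

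The other Rab11 interacting proteins gave no call. Rab11fip5, an effector on recycling vesicles, was 555, 597 and 635 in Sham and 535, 570 and 624 in HF-HI. The transcripts of Rab11fip2, which binds myosin V, were 423 to 532 and 152 to 269 in Sham and 443 to 518 and 163 to 239 in HF-HI. Summed per gene, the log2 difference was −0.06 for Rab11fip5 (95% interval −0.15 to 0.03) and −0.01 for Rab11fip2 (−0.12 to 0.09).

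The recycling and plasma membrane Rabs had 1 call among 15 transcripts (6.67%), beside 8.83% of all transcripts. Rab4b (ENSMUST00000093040, chr7:27168424-27178896, minus strand), which acts in rapid return from early endosomes, was 132, 150 and 165 in Sham and 95.8, 134 and 151 in HF-HI, so 3 HF-HI libraries were below every Sham library and 2 above the Sham median. Its log2 ratio was −0.22 (unadjusted p = 0.0384 and adjusted p = 0.539 with Benjamini-Hochberg in limma). Rab4b was among the members with few reads, the difference on the deposited scale was −0.03 with depth as a covariate (unadjusted p = 0.171), beside −0.04 without, and the call held in 8 of the 15 fits that left out a library. Its relative Rab4a was 130, 143 and 167 in Sham and 125, 136 and 157 in HF-HI.

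Rab11a, the main recycling endosome Rab, was 1213, 1312 and 1376 in Sham and 1192, 1282 and 1335 in HF-HI, a log2 difference of −0.01 per gene (95% interval −0.09 to 0.07). Rab11b had 2 transcripts, Rab11b-203 at 435 to 504 in Sham and 354 to 540 in HF-HI and Rab11b-201 at 170 to 261 in Sham and 178 to 324 in HF-HI. Their sum differed by 0.01 (−0.11 to 0.12). For both genes the group ranges overlapped along most of their length.

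Rab10 and Rab14, which deliver membrane to the cell surface, were 1342 to 1518 and 1592 to 1734 in Sham and 1266 to 1484 and 1571 to 1808 in HF-HI. The groups lay over each other for both. Rab8a, Rab8b and Rab35, which act in delivery and recycling at the plasma membrane, had medians of 222, 431 and 659 in Sham and 215, 418 and 655 in HF-HI. Among this class Rab14 had the narrowest 95% interval per gene, −0.05 to 0.06 on the log2 scale, and Rab23, a Rab of the ciliary pathway, one of the widest in the family, −0.34 to 0.44.

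The ER and Golgi Rabs had 2 calls among 13 transcripts (15.4%), in opposite directions, beside 8.83% of all transcripts. Rab6b (ENSMUST00000035155, chr9:103111807-103185276, plus strand), the brain-enriched Rab6 of Golgi and retrograde traffic, was 4348, 4631 and 4873 in Sham and 4615, 4766 and 5033 in HF-HI. Only 1 HF-HI library was above every Sham library, and 7 were above the Sham median. Its log2 ratio was 0.06 (unadjusted p = 0.0476 and adjusted p = 0.561 with Benjamini-Hochberg in limma). With each library centered on its median the unadjusted p was 0.0513, and Rab6b stayed under 0.05 in 3 of the 15 fits that left out a library.

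Rab39b (ENSMUST00000033545, chrX:75572046-75578231, minus strand), a neuronal Rab whose human gene is mutated in X-linked intellectual disability, was 407, 424 and 472 in Sham and 355, 407 and 421 in HF-HI. All 8 HF-HI libraries were below the Sham median and 4 below every Sham library. The log2 ratio was −0.11 (unadjusted p = 0.0401 and adjusted p = 0.545 with Benjamini-Hochberg in limma). HF-HI replicate 2 was the lowest, and without it the log2 ratio was −0.09 and the unadjusted p 0.0771. The call held in 8 of the 15 fits that left out a library.

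Rab2a was 1666, 1800 and 1949 in Sham and 1696, 1756 and 1861 in HF-HI, and Rab18 was 681, 741 and 811 in Sham and 657, 712 and 800 in HF-HI. In each gene the group ranges overlapped. Rab1a, which drives ER-to-Golgi transport, differed by −0.04 per gene (95% interval −0.16 to 0.08), and its relative Rab1b by −0.03 (−0.15 to 0.10).

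Rab6a differed by 0.05 per gene (95% interval −0.05 to 0.14), and its 2 listed transcripts carry alternative versions of a coding exon. These are shown because the data give a count for the transcript that carries each version. The exons are 106 bases long, both on the plus strand, and differ at the 30 bases in capitals (GENCODE transcripts, GRCm38). The transcripts also differ at their 5′ ends and in the length of their annotated coding sequence, 624 bases in Rab6a-201 and 525 in Rab6a-203. A count therefore belongs to a whole transcript and not to this exon alone.
Rab6a-201, chr7:100629838-100629943: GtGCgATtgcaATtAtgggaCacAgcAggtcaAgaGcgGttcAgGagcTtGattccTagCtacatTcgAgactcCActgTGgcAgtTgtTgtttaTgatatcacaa
Rab6a-203, chr7:100629666-100629771: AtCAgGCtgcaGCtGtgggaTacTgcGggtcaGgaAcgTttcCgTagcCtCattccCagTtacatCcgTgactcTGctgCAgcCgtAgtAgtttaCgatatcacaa

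Rab6a-201 (ENSMUST00000032946) held most of the gene, with counts of 3564, 3990 and 4935 in Sham and 2903, 3857 and 4753 in HF-HI. Rab6a-203 (ENSMUST00000107048) was 331, 785 and 998 in Sham and 310, 950 and 1571 in HF-HI. Its share of the gene was 6.29% to 21.8% in Sham and 6.48% to 35.1% in HF-HI, a balance that differed by 0.19 on the log2 scale with an SE of 0.45. The summed gene varied far less than this transcript, with a coefficient of variation of 6.98% in Sham and 5.99% in HF-HI beside 27.9% and 51.9%.

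None of the 7 transcripts of the synaptic and secretory Rabs had a p under 0.05, beside 8.83% of all transcripts. Rab3c was 3346, 3414 and 3716 in Sham and 3222, 3377 and 3694 in HF-HI. Per gene, Rab3a differed by −0.05 (95% interval −0.10 to 0.01), Rab3c by −0.03 (−0.10 to 0.04), Rab3b by 0.08 (−0.12 to 0.29) and Rab27b, a Rab of secretory vesicles, by −0.12 (−0.31 to 0.07). Rab27b was 231, 319 and 379 in Sham and 259, 278 and 314 in HF-HI, with all 8 HF-HI libraries below the Sham median but within the Sham range.

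The 3 transcripts of Rab3a have annotated coding sequences of 660 bases each and differ in start position and total length. Rab3a-201 was 1515, 1701 and 1908 in Sham and 1352, 1750 and 1854 in HF-HI, and Rab3a-204 was 570, 688 and 697 in Sham and 466, 600 and 842 in HF-HI. The least abundant, Rab3a-202, was 107, 214 and 425 in Sham and 4.62, 103 and 661 in HF-HI. Its coefficient of variation of 114% in HF-HI was the largest of any member, while that of the Rab3a sum was 3.78% in the same libraries.

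Rab3 regulators gave no call among 3 transcripts, beside 8.83% of all transcripts called. Rab3gap1 and Rab3gap2, the subunits of the Rab3 GTPase-activating complex, were 710, 770 and 835 and 1012, 1108 and 1134 in Sham, and 695, 764 and 828 and 1039, 1081 and 1132 in HF-HI. Per gene they differed by 0.01 (95% interval −0.09 to 0.10) and −0.01 (−0.08 to 0.06).

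No early endosome Rab had a p under 0.05 among 7 transcripts, beside 8.83% of all transcripts. Of all 10370 transcripts, 5028 were higher in HF-HI on the deposited scale. Each of the 7 had a lower mean in HF-HI, on the deposited scale and after either rescaling of the libraries. The deposited-scale differences were small, from −0.003 for Rab31 to −0.018 for Rab5a, and their shared direction was not tested. In limma-voom Rab31 alone lay on the other side, at 0.01 (95% interval −0.11 to 0.12). Rab5a was 742, 924 and 1043 in Sham and 743, 893 and 967 in HF-HI, Rab5b 1008, 1054 and 1125 and 983, 1041 and 1114, and Rab5c 715, 765 and 861 and 689, 788 and 827. The median log2 ratio of this class was −0.04. Rab21, which acts in endocytosis of integrins, was 422, 453 and 498 in Sham and 366, 438 and 509 in HF-HI.

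Late endosome and lysosome Rabs likewise gave no call among 4 transcripts, beside 8.83% of all transcripts called. Rab7, which drives the maturation of late endosomes, was 1040, 1134 and 1245 in Sham and 1011, 1102 and 1151 in HF-HI, a difference of −0.06 per gene (95% interval −0.14 to 0.03). Rab9 and Rab9b, of the path from late endosomes to the Golgi, differed by 0.06 (−0.09 to 0.20) and 0.04 (−0.13 to 0.22).

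Rabep1 encodes rabaptin-5, an effector that bridges Rab5 and Rab4 and carries the exchange factor Rabgef1. Its 2 listed transcripts differed in opposite directions. Rabep1-201 (ENSMUST00000076270, chr11:70844778-70943105, plus strand) was 995, 1058 and 1108 in Sham and 825, 952 and 1079 in HF-HI, with 6 HF-HI libraries below every Sham library. The log2 ratio was −0.16 (unadjusted p = 0.0114 and adjusted p = 0.422 with Benjamini-Hochberg in limma). Rabep1-203 (ENSMUST00000100928, chr11:70844799-70941298, plus strand) was 93.1, 120 and 168 in Sham and 123, 155 and 214 in HF-HI, with all 8 HF-HI libraries above the Sham median and 2 above every Sham library. Its log2 ratio was 0.40 (unadjusted p = 0.0194 and adjusted p = 0.476 with Benjamini-Hochberg in limma).

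The 2 transcripts differ in 3 stretches of coding sequence. Rabep1-201 alone holds a cassette exon of 105 bases, and Rabep1-203 reads on past the splice site of a late exon for 99 coding bases, and these stretches are printed because each lies in only 1 of the transcripts. The last 99 coding bases of Rabep1-201 also lie in the untranslated end of Rabep1-203 and are not shown (plus strand, GENCODE transcripts, GRCm38, no base singled out in capitals).
Rabep1-201 cassette exon, chr11:70919177-70919281: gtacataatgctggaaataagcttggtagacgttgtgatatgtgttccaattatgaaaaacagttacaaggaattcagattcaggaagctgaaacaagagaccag
Rabep1-203 last coding stretch, chr11:70939997-70940095: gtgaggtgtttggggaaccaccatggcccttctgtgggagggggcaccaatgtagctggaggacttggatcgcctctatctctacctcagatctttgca

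Rabep1-203 held 8.02%, 9.78% and 14.1% of the gene in Sham (lowest, median and highest) and 11.0%, 14.8% and 18.3% in HF-HI. The groups overlapped between 11.0% and 14.1%. The log2 balance of Rabep1-203 against Rabep1-201 was higher in HF-HI by 0.56 (SE 0.175, exact two-sided permutation p of the share = 0.00839), with a Benjamini-Hochberg adjusted p of 0.608 in limma. Of 27 member transcripts whose gene had several listed, these 2 alone (7.41%) had an unadjusted p under 0.05 for balance, beside 6.28% of such transcripts of all genes. In a gene with 2 listed transcripts the balance of 1 is the negative of the other. The 2 calls are therefore a single result, of 1 gene among the 13 with several listed transcripts. The Rabep1 sum differed by −0.08 (95% interval −0.18 to 0.02). Reads that both transcripts share were divided by the authors' estimation, so the counts of the 2 transcripts are not independent.

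**Figure D4:**
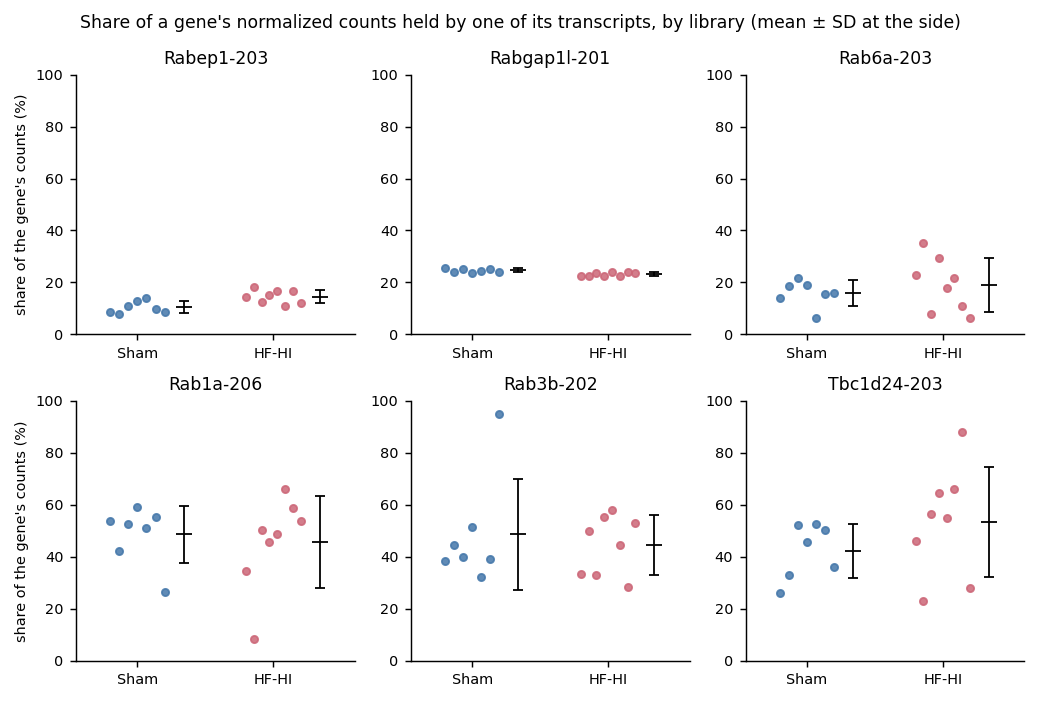
Share (%, vertical axis) of a gene's normalized counts held by 1 of its listed transcripts, 1 point a library, with the mean and SD of the 7 Sham (blue) and 8 HF-HI (red) libraries at the side. Rabep1-203 lies between 8.02% and 14.1% in Sham and between 11.0% and 18.3% in HF-HI, while Rab1a-206, Rab3b-202 and Tbc1d24-203 spread widely within each group.

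TBC-domain proteins had 1 call among 27 transcripts (3.70%), beside 8.83% of all transcripts. Tbc1d30 (ENSMUST00000064107, chr10:121263820-121311189, minus strand), a GTPase-activating protein that acts on Rab8a, was 1041, 1118 and 1160 in Sham and 1074, 1213 and 1287 in HF-HI. In all, 6 HF-HI libraries were above every Sham library and 1 below the Sham median. The log2 ratio was 0.12 (unadjusted p = 0.00929 and adjusted p = 0.408 with Benjamini-Hochberg in limma). The library below was HF-HI replicate 2, and without it the ratio was 0.15. Tbc1d30 kept an unadjusted p under 0.05 with depth as a covariate (0.0225) and among the 6 Sham and 3 HF-HI libraries with a size factor above 1 (0.0479).

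The next members by p were also TBC-domain proteins. Tbc1d5, a Rab7 GTPase-activating protein that binds retromer, had the tightest libraries of any member in HF-HI, at 333, 346 and 355 in Sham and 348, 357 and 370 in HF-HI. Its 8 HF-HI libraries were all above the Sham median and 6 above every Sham library. The exact permutation p was 0.00155, while limma, which draws the variance of a transcript toward that of others of its level, gave an unadjusted p of 0.0651. The log2 ratio was 0.07.

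Rabgap1l-201 (ENSMUST00000028049) was 437, 479 and 504 in Sham and 408, 454 and 475 in HF-HI, all 8 HF-HI libraries lying below the Sham median. The log2 ratio was −0.09 with an unadjusted limma p of 0.0522. The more abundant Rabgap1l-202, whose coding sequence is shorter, was 1413, 1443 and 1501 in Sham and 1415, 1471 and 1548 in HF-HI. The share of Rabgap1l-201 was 23.6% to 25.7% in Sham and 22.4% to 24.2% in HF-HI (exact permutation p = 0.00637, unadjusted limma p of the balance = 0.172).

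The 3 transcripts of its relative Rabgap1 were 233 to 615, 285 to 621 and 106 to 210 in Sham and 403 to 583, 325 to 540 and 118 to 221 in HF-HI, and their sum differed by 0.03 (95% interval −0.05 to 0.11). Tbc1d24, whose human gene is mutated in epilepsies, had 2 transcripts with annotated coding sequences of 1683 bases each. Tbc1d24-202 was 336, 457 and 561 in Sham and 82.1, 373 and 560 in HF-HI, and Tbc1d24-203 was 199, 366 and 460 in Sham and 138, 464 and 699 in HF-HI. The balance between them differed by 0.73 on the log2 scale with an SE of 0.56, and their sum by −0.06 (−0.26 to 0.14).

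Members that share their gene with other listed transcripts varied more between libraries than the rest. The median coefficient of variation between Sham libraries was 6.42% for the 57 members that are the only listed transcript of their gene and 14.98% for the 27 that share their gene with others. In HF-HI the medians were 7.06% and 16.4%. Summed per gene, the 13 genes with several transcripts had medians of 5.25% and 6.31%, and all transcripts of the data had 10.5% and 12.4%.

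**Figure D5:**
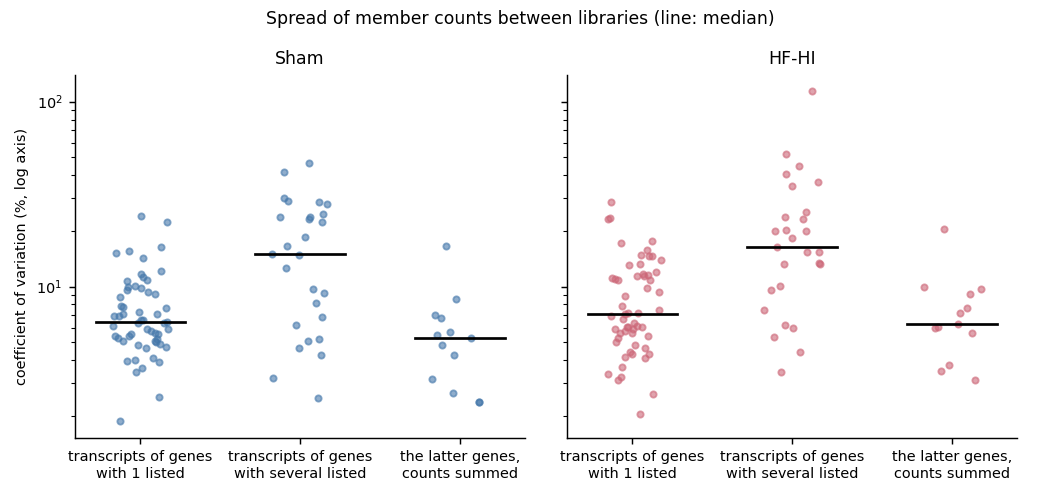
Coefficient of variation between libraries (%, vertical log axis) of member transcripts and summed member genes, Sham at left and HF-HI at right, 1 point a transcript or gene and a line at the median. Transcripts that share their gene with others (medians 14.98% and 16.4%) lie above those that do not (6.42% and 7.06%), and their sums lie at 5.25% and 6.31%.

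Rab1a shows the pattern in a single gene. Its transcripts were 493 to 875 and 312 to 728 in Sham and 355 to 1032 and 93.9 to 692 in HF-HI, while the coefficient of variation of their sum was 6.73% and 9.97%. Rab3b-201 was 9.01 to 170 in Sham and 106 to 216 in HF-HI, and Rab3b-202 74.8 to 175 in Sham and 83.5 to 153 in HF-HI.

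Depth moved with the group and was set beside the calls. With the log2 size factor as a covariate, Rab11fip3 (unadjusted p = 0.0328), Tbc1d30 (0.0225) and Rabep1-203 (0.0368) stayed under 0.05, and Rabep1-201 (0.2998), Rab11fip4 (0.259), Rab4b (0.171), Rab39b (0.116) and Rab6b (0.151) did not. In the same fit the deposited-scale difference of Rab11fip3 was 0.09, beside 0.11 without the covariate. The differences of Rabep1-201 (−0.02 beside −0.07) and Rab11fip4 (0.02 beside 0.05) shrank most, while those of Rab4b (−0.03 beside −0.04), Rab39b (−0.03 beside −0.03) and Rab6b (0.04 beside 0.04) were nearer their size without the covariate. Without HF-HI replicate 2, 7 of the 8 stayed under 0.05, Rab39b being the exception.

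The proteins that act on Rabs outside the member list were counted as well. Of 79 genes listed as carriers, exchange factors and effectors, 67 were in the data with 97 coding transcripts, and 9 of these (9.28%) had an unadjusted p under 0.05, 7 higher and 2 lower in HF-HI. These shares stand beside 8.83% of all transcripts, 4.94% higher and 3.90% lower. None of the 7 transcripts of carriers and prenylation proteins was among them. Gdi2, which extracts inactive Rabs from membranes, was 1677, 1768 and 1870 in Sham and 1540, 1707 and 1768 in HF-HI (unadjusted p = 0.0734).

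Among exchange factors Dennd4b, a DENN-domain factor for Rab10, had a transcript that was called and higher (ENSMUST00000129564), at 91.7, 107 and 169 in Sham and 101, 162 and 252 in HF-HI. Its groups overlapped, with 7 HF-HI libraries above the Sham median and 3 above every Sham library. The more abundant Dennd4b transcript (ENSMUST00000098914) was 162, 205 and 242 in Sham and 83.8, 192 and 204 in HF-HI, a log2 ratio of −0.20 with an unadjusted limma p of 0.159.

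Among genes listed as effectors 7 of 56 transcripts (12.5%) were called, beside 8.83% of all transcripts, 5 higher and 2 lower. The higher were Mical3, Micall1, Plekhm1, Rims3 and Sytl2, and all 8 HF-HI libraries were above the Sham median for each. Mical3, a flavin enzyme that binds Rab8, was 302, 319 and 345 in Sham and 339, 357 and 399 in HF-HI, with 7 HF-HI libraries above every Sham library. Its log2 ratio was 0.19, with an unadjusted limma p of 0.00195. Micall1, a partner of Rab8 and Rab35 on recycling endosomes, was 288, 303 and 323 in Sham and 316, 336 and 394 in HF-HI (log2 ratio 0.19). Rims3 was listed with other members of the RIM family of the presynaptic active zone, and whether it binds a Rab itself was not examined. Its called transcript (ENSMUST00000106283) was 571, 778 and 881 in Sham and 815, 908 and 1316 in HF-HI (log2 ratio 0.40). The more abundant Rims3 transcript (ENSMUST00000071093) was 1141, 1220 and 1576 in Sham and 1054, 1208 and 1338 in HF-HI (log2 ratio −0.06).

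The lower effectors were Bicd1, an adaptor of Rab6 to dynein, at 854, 936 and 953 in Sham and 785, 855 and 927 in HF-HI, and 1 of 5 transcripts of Osbpl1a, a Rab7 effector that senses sterols (ENSMUST00000118313), at 327, 424 and 550 in Sham and 280, 342 and 464 in HF-HI. The most abundant Osbpl1a transcript (ENSMUST00000119043) was 1278, 1436 and 1599 in Sham and 1369, 1512 and 1788 in HF-HI (log2 ratio 0.08, not called). The smallest Benjamini-Hochberg adjusted p of these lists was 0.319 in limma, for Mical3.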

How the data were processed

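Cortical RNA of 7 Sham and 8 HF-HI samples was measured. Per the study's methods and the submitters' processing notes, the authors aligned reads to mm10 with STAR. Transcript abundance came from eXpress as estimated counts, which the authors scaled and variance-stabilized (VSD) with DESeq2. The annotation release was not given in the sources used here. The authors deposited VSD values on the log2 scale for 10370 transcripts, in a column per library, and each column matched 1 sample by its name. The lowest mean was 107.9 normalized counts, so rarer transcripts were not analysed here.

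The transformation was inverted to normalized counts and to reads, and 100% of the values were whole reads within a tolerance of 0.1. A read was worth 0.679 to 2.00 normalized counts, depending on the library, which sets the counting precision. Names, types and positions came from GENCODE M21 (GRCm38), which held 10241 of the transcripts and lacked 129.

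Group was the only term of each main comparison, HF-HI minus Sham, two-sided. The main test was limma 3.58.1 (R 4.3.3) on the VSD values with eBayes and trend. Reads summed per gene were fitted with limma-voom. Isoform balance was the log2 ratio of a transcript to the other listed transcripts of its gene, with a pseudocount of 0.5. Fits ran over every transcript or gene with Benjamini-Hochberg adjustment, and no count model was fitted. Exact permutations used 6435 arrangements of the libraries. Tables were made with Python 3.11.15, pandas 2.3.3 and scipy 1.17.1, and the fits were tested on simulated data.

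The members, role classes, pathway lists and markers were chosen with earlier results of these data known; Rab40b and the lists of close relatives were added after values were seen. Named were the 10 transcripts with the smallest p and a set of Rabs and regulators named whatever its values, 48 transcripts in all, the rest being given by counts and intervals. A gene of the pathway lists is not reported here. Alternatives changed the scale, scaling, prior, library weights, filter, depth, replicate block and the libraries used.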

Additional observations from a re-analysis of the deposited data

Results flagged for a closer look

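A library far from the others of its group, by a test for a single outlying value, was found in 6 of 96 groups of values, which are the 48 named transcripts in Sham and in HF-HI, and chance gives about 1 in 20. Rab11fip4 was 3304 in Sham replicate 3, above the 3117 to 3192 of the other Sham libraries. Rab8b was 367 in Sham replicate 1, below 423 to 445. The other 4 were single transcripts of genes with several. Rabgap1-203 was 232.9 in Sham replicate 5, below 488 to 615, while its gene summed to 1013 there and to 1008 to 1130 in the others. Rab6a-203 was 331 in the same library, below 667 to 998, with a gene sum of 5267 beside 4403 to 5102. Rab1a-206 was 93.9 in HF-HI replicate 2, below 413 to 692, with a gene sum of 1126 beside 938 to 1288. Rab3b-201 was 9.01 in Sham replicate 7, below 152 to 170, and there the gene sum of 184 was also below the 233 to 324 of the other Sham libraries.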

How the results depend on the processing

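The count of member transcripts under 0.05 was 8, and it was 4 with the log2 size factor as a covariate and 2 among the 6 Sham and 3 HF-HI libraries with a size factor above 1. Over all transcripts the share called went from 8.83% to 5.14% and 5.22% under these settings, and that of all genes from 9.43% to 6.14% with the covariate. Member genes called by summed reads went from 6 to 3 with that covariate. Under both settings for transcripts, Rab40b (chosen here after its values were seen) was called and lower. The count of isoform balance calls was 2, the mirrored pair of Rabep1. It became 0 of 14 transcripts under a filter at a mean of 300 normalized counts, which removed Rabep1-203. Leaving out 1 library at a time gave 5 to 10 of 84 transcripts, 4 to 8 of 70 genes and 2 to 4 isoform balance calls. Over all transcripts the share called in these fits was 7.21% to 9.52%. The lowest count of member transcripts came without Sham replicate 7 and the highest count of balance calls without HF-HI replicate 1. The cause of these shifts was not tested.

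Tbc1d30 held under 27 of 27 alternatives and Rab11fip3 under 26 of 27. Both Rabep1 transcripts and Rab11fip4 held in all 15 fits that left out a library. Rab4b was lost without Sham replicates 3, 4, 5 or 7 or HF-HI replicates 1, 3 or 7, and Rab39b without Sham replicates 2, 5, 6 or 7 or HF-HI replicates 2, 5 or 7. Rab6b was kept only without Sham replicate 4, HF-HI replicate 1 or HF-HI replicate 2. No named transcript that was called reversed its sign under any of them. Adjusted p-values of the 8 ranged from 0.274 to 0.968 over the alternatives.

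With the replicate number as a replicate block, 7 transcripts, 5 genes and 2 balances were called, and Rab4b, Rab39b and Rab6b were not among the transcripts. Same-numbered libraries correlated between −0.138 and 0.0905, and 1 of 7 correlated best with its own number, so the numbers were not taken as pairs. A filter at a mean of 300 normalized counts left 50 member transcripts, of which 6 were called, beside 9.65% of all transcripts that passed it. With voom, log2 counts or another scaling 8 to 10 of 84 were called. The share of all transcripts called under each of those settings was below the 8.83% of the main fit.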
